A study of Mus musculus with 40 samples.

Results

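The genes described here are 6 regulators of naive and memory T cell states, Tcf7, Lef1, Bach2, Satb1, Id2 and Id3, and 4 genes used as naive T cell markers, Igfbp4, Dapl1, Nsg2 and Actn1. They were chosen by name and not by a measured value, though with earlier results of these data known. Each was read from the probe set annotated to it alone that had the highest mean signal over the arrays of its platform. For Lef1 and Satb1 that probe set differed between the array types. Of the 10 genes, 9 were found among the 18194 genes of the sorted T cell arrays and 8 among the 17097 genes of the ligand arrays. Tcf7 was not analysed here on either array type, and Dapl1 was not analysed on the ligand arrays.

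All 40 samples came from C57Bl/6 mice and were hybridised to Affymetrix arrays of 2 types. The sorted T cell experiment used Foxp3-GFP mice, in which GFP marks regulatory T cells (Treg), the CD4 T cells defined by the transcription factor Foxp3. Its groups were activated Treg (CD4+, CD45RBlow, GFP+, cultured with anti-CD3/CD28, 3 arrays), resting Treg (the same gate, no stimulation, 3 arrays) and resting conventional CD4 T cells (Tconv, CD4+, CD45RBhi, GFP-, no stimulation, 2 arrays), each after 48 h in RPMI with 10% FBS. All 8 samples of this experiment carry bone marrow in their source label. Bone marrow progenitor markers (Kit, Cd34, Gata2 and Meis1) averaged 4.84 to 5.21 per array in activated Treg, 4.83 to 4.90 in resting Treg and 4.67 to 4.89 in Tconv, in log2 signal. T cell markers (7 of 8 measured) averaged 11.30 to 11.87 per array in activated Treg, 11.13 to 11.50 in resting Treg and 11.43 to 11.48 in Tconv. Of these Cd3e averaged 10.08 in activated Treg, 9.72 in resting Treg and 9.84 in Tconv. Cd4 was highest in Tconv (9.93, 9.91 and 11.13) and Cd5 lowest there (12.13, 11.75 and 11.08). CD45RB is a surface marker that naive T cells carry at a high level, so lineage and CD45RB level cannot be told apart between Treg and Tconv. The ligand experiment used CD4+ CD45RBlow YFP+ Treg of spleen and peripheral lymph nodes, all given immobilised anti-CD3 at 1 µg/mL, soluble anti-CD28 at 2 µg/mL and recombinant human IL-2 at 100 U/mL. Its groups were Nrp fl/fl x Foxp3-YFP-iCre cells (KO), in which a Cre driven by Foxp3 deletes the neuropilin-1 gene in Treg, and Foxp3-YFPiCre cells (WT), which carry the same Cre. Each genotype was exposed to immobilised Sema4a-Ig, a fusion of the ligand semaphorin-4a, or to mouse IgG1 as its control, at 10 µg/mL, with 8 arrays for each genotype and treatment. Whether replicates were separate animals or cultures is not in the labels, so p-values cover only the spread among these arrays, which could be technical.

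Naive T cells are kept in a quiescent, recirculating state by a small set of transcription factors. Lef1 and its relative Tcf7 bind DNA through an HMG box and act with beta-catenin and Groucho (TLE) corepressors, Bach2 represses effector genes by competing with AP-1 factors, and Satb1 organises chromatin. Id2 and Id3 lack a DNA-binding region and hold E proteins, which bind E-boxes, in inactive dimers, with Id3 linked to naive and memory cells and Id2 to effector cells. Several of these genes are lowered when T cells are activated, and Bach2, Satb1 and Id3 also have known roles in Treg.

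The RefSeq promoter windows of 4 genes are printed because these genes were the ones that passed the test between resting Treg and resting Tconv, 3 of them lower and Id3 higher in Treg. Each window runs from 250 bases before to 50 bases after a listed transcription start (GRCm38.p6, given 5′ to 3′ on the gene's strand), and the capitals mark E-boxes, CANNTG. The Lef1 window is the first of 4 listed, chr3:131110047-131110346 on the plus strand. Those of Igfbp4, chr11:99040994-99041293, Dapl1, chr2:59484403-59484702, and Id3, chr4:136143572-136143871, are also on the plus strand.
Lef1: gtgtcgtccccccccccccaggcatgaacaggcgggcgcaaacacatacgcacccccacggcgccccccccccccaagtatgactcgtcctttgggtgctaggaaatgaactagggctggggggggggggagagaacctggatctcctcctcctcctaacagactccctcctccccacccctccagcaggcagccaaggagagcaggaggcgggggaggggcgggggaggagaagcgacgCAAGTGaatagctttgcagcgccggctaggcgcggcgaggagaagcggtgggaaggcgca
Igfbp4: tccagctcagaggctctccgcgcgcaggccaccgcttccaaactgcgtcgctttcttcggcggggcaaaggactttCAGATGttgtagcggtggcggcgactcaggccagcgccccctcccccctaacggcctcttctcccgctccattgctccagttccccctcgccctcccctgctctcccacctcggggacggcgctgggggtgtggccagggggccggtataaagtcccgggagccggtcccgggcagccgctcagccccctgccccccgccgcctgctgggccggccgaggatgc
Dapl1: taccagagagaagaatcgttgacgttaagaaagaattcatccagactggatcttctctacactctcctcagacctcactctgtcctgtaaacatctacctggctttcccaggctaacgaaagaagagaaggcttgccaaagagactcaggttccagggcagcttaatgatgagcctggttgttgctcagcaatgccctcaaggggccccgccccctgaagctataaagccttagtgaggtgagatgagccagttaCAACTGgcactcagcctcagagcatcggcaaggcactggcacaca
Id3: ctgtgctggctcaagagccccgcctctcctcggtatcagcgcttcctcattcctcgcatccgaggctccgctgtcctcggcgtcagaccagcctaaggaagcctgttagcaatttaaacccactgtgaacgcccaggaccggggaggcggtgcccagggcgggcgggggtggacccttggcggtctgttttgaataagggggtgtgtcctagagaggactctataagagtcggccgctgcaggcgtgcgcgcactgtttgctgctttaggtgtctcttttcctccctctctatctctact
Lef1, Igfbp4 and Dapl1 hold 1 E-box each in these windows and Id3 holds none. Over the 9 measured genes, 14 of 17 listed windows hold an E-box, beside 72.3% of all 32851 RefSeq promoter windows of the same length. The motif CTTTGAT, bound by TCF and LEF factors and searched on both strands, is in none of the 17 windows and in 3.73% of all windows. These letters are a description of the windows and say nothing of binding.

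Signals are the deposited log2 values per probe set, and a difference of 1 is a 2-fold change. Foxp3 averaged 10.81 in activated Treg, 10.44 in resting Treg and 4.0 in Tconv. In the ligand experiment the Foxp3 probe set averaged 3.55, under the highest nonspecific control probe set (3.95), while the Treg markers Ikzf2 (11.11) and Ctla4 (11.09) were well above it. The sorted arrays differed in the gap between the 3′ and 5′ control probe sets of Actb, a sign of RNA integrity, which was 2.31 to 6.17 in activated Treg, 2.5 to 5.90 in resting Treg and 1.24 to 1.54 in Tconv. It was over 4 in activated Treg replicates 1 and 2 and resting Treg replicate 1. B cell markers (7 of 8 measured) averaged 4.98 to 5.86 per array in activated Treg, 5.17 to 5.81 in resting Treg and 4.43 to 4.60 in Tconv, and myeloid markers (12 of 12) reached 7.62 in activated Treg replicate 1, against 5.27 to 6.20 on the other 7 arrays. Dendritic cell and MHC class II markers (8 of 8) averaged 6.17 to 6.89 per array in activated Treg, 6.07 to 7.38 in resting Treg and 5.46 to 5.49 in Tconv. CD8 and NK cell markers (7 of 8) averaged 5.15 to 5.45 in activated Treg, 5.27 to 5.62 in resting Treg and 6.38 to 6.61 in Tconv. Of these Klrd1, a receptor gene of NK and T cells, averaged 5.34 in activated Treg, 7.30 in resting Treg and 12.03 in Tconv, whereas Cd8a (5.31, 5.20 and 5.20) and Ncr1 (4.53, 4.45 and 4.55) lay near or under the median of all probe sets in all 3 groups. From the same list Prf1 (5.52, 5.82 and 7.17) and Cd8b1 (5.69, 5.83 and 6.22) were also highest in Tconv. Prf1 was lower in activated Treg than in Tconv (-1.65, limma adjusted p = 0.04655). Eomes (6.06, 5.12 and 5.79) and Gzma (4.71, 4.50 and 4.53) were highest in activated Treg. The part of RNA integrity and of these cells in the results below was not tested, except where a value is given.

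Resting Treg and resting Tconv were compared to see how naive genes differ between the sorted populations without stimulation. Igfbp4, Dapl1 and Lef1 fell in resting Treg, with log2 differences of -5.11, -4.13 and -1.55, and Id3 rose, with one of 2.74. In signal this is 17.5-fold lower for Dapl1, 2.92-fold lower for Lef1 and 6.66-fold higher for Id3, while no fold is given for Igfbp4, whose Treg signals were not shown to be above background. These were 4 of the 9 genes, where 5.51% of all genes passed limma's test at an adjusted p under 0.05. The 3 that fell stand beside a background of 1.65% of genes that fell, and the 1 that rose beside 3.86%. In 8 of the 9 genes the arrays of the groups did not overlap (Id2 was the exception), which held for 42.0% of all genes. The median difference of the 9 genes was -0.87, against 0.01 over all genes tested.

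Lef1 had log2 signals of 9.60, 10.16 and 9.86 in activated Treg and 10.48, 10.61 and 9.94 in resting Treg, against 12.05 and 11.73 in resting Tconv. Both Tconv arrays were above every Treg array. The difference from Tconv was -2.02 ± 0.26 (SE; adjusted p = 0.0021) in activated Treg and -1.55 ± 0.26 (adjusted p = 0.0111) in resting Treg. In a bulk sample, fewer cells with a gene on and less of its RNA per cell cannot be told apart. A second probe set of Lef1 gave larger differences, -3.24 for activated and -2.71 for resting Treg against Tconv. Over only the arrays with an Actb gap of 4 or less, Lef1 differed from Tconv by -2.03 in activated Treg and by -1.61 in resting Treg, at adjusted p of 0.0538 and 0.054.

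Satb1 and Bach2 lay lower in Treg on average without passing the test. Satb1 had log2 signals of 12.57, 12.93 and 12.75 in activated Treg, 13.08, 13.14 and 12.32 in resting Treg, and 13.40 and 13.38 in Tconv. All 6 Treg arrays lay below both Tconv arrays, with differences of -0.64 ± 0.26 for activated Treg (adjusted p = 0.191) and -0.55 ± 0.26 for resting Treg (adjusted p = 0.329). All 5 Satb1 probe sets were lower in both Treg groups than in Tconv. Bach2 had 10.82, 11.20 and 12.02 in activated Treg, 11.11, 11.90 and 11.20 in resting Treg, and 12.02 and 12.07 in Tconv. Replicate 3 of activated Treg thus reached the Tconv level, and the differences were -0.70 ± 0.36 (adjusted p = 0.331) and -0.65 ± 0.36 (adjusted p = 0.426). Of the 3 Bach2 probe sets the dimmest was higher in Treg than in Tconv, by 0.71 in activated and 0.80 in resting Treg.

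Of the Id genes, Id3 was higher in resting Treg and Id2 had no difference that passed. Id3 had log2 signals of 8.47, 8.72 and 10.03 in activated Treg and 9.68, 10.50 and 10.65 in resting Treg, against 7.75 and 7.33 in Tconv. All 6 Treg arrays were above both Tconv arrays. The difference of 1.54 ± 0.47 in activated Treg did not pass (adjusted p = 0.0882), and that of 2.74 ± 0.47 in resting Treg did (adjusted p = 0.0133). With the class of the Actb gap, over 4 or not, as a block, the activated Treg difference was 2.31 and passed (adjusted p = 0.00148). That difference passed in 4 of 17 alternative fits, and in 0 of the 8 fits without 1 array. Id2 had 10.48, 9.49 and 9.46 in activated Treg, 9.26, 9.09 and 10.06 in resting Treg, and 9.91 and 9.80 in Tconv. The 3 groups overlapped, and the differences from Tconv were -0.05 (95% interval -0.92 to 0.82) for activated and -0.39 (-1.25 to 0.48) for resting Treg.

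**Figure D1:**
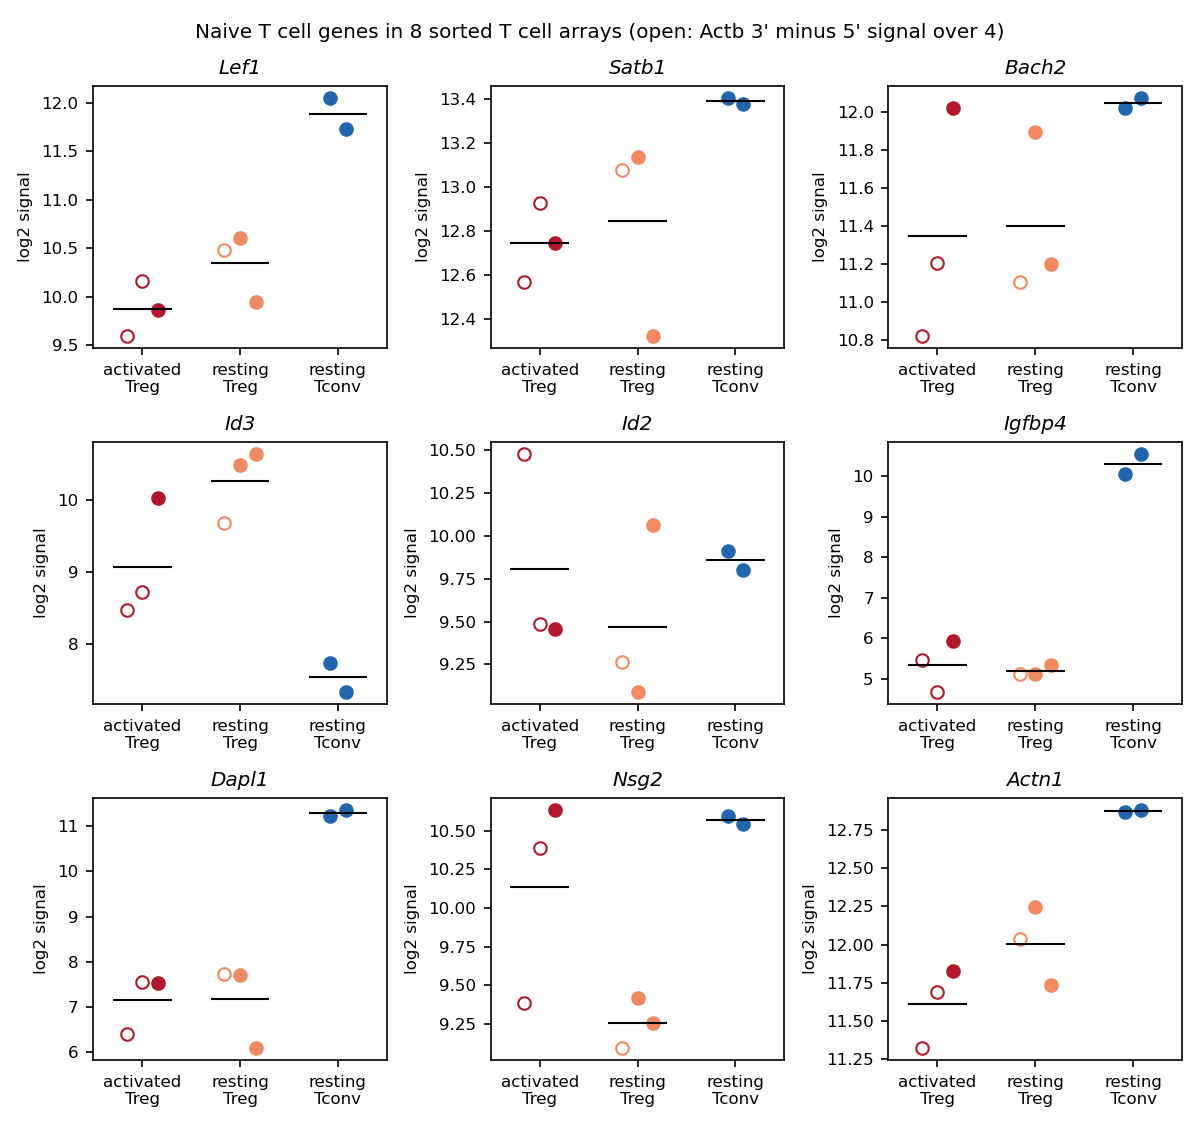
Deposited log2 signal (vertical axis of each panel) of 9 genes on the 8 sorted T cell arrays, by group; each point is an array, the line is the group mean, and open points mark arrays with an Actb 3′ minus 5′ gap over 4. Igfbp4, Dapl1, Lef1 and Actn1 are lower on every Treg array than on both Tconv arrays, and Id3 is higher on every Treg array.

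Igfbp4, which encodes a secreted protein that binds insulin-like growth factors, had the widest gap of the set. Its log2 signals were 5.46, 4.67 and 5.92 in activated Treg and 5.11, 5.11 and 5.35 in resting Treg, against 10.06 and 10.55 in Tconv. The 6 Treg values lay around the median of all probe sets on these arrays, 5.03 to 5.22. The difference was -4.95 ± 0.34 for activated Treg (adjusted p = 0.000104) and -5.11 ± 0.34 for resting Treg (adjusted p = 0.000148). All 6 Igfbp4 probe sets had negative differences in both Treg groups, from -4.95 to -0.21 in activated Treg and from -5.11 to -0.02 in resting Treg. Igfbp4 stayed past the threshold in all 17 alternative fits of each comparison with Tconv, and with the mean of its 6 probe sets in place of the brightest the differences were -2.53 in activated Treg and -2.59 in resting Treg.

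Dapl1, a gene named for its likeness to death-associated protein, had 6.39, 7.55 and 7.53 in activated Treg and 7.73, 7.70 and 6.08 in resting Treg, against 11.23 and 11.37 in Tconv. No Treg array came within 3 log2 units of Tconv. The differences were -4.14 ± 0.54 for activated Treg (adjusted p = 0.00239) and -4.13 ± 0.54 for resting Treg (adjusted p = 0.00375). Over only the arrays with an Actb gap of 4 or less, the activated Treg difference was -3.77 with an adjusted p of 0.0633.

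Actn1, which encodes the actin-crosslinking protein alpha-actinin 1, had 11.32, 11.69 and 11.82 in activated Treg, 12.04, 12.24 and 11.73 in resting Treg, and 12.86 and 12.88 in Tconv. It fell in activated Treg, by 1.26 ± 0.21 relative to Tconv (adjusted p = 0.00831). The resting Treg difference of -0.87 ± 0.21 missed the threshold (adjusted p = 0.0576) and passed in 5 of 17 alternative fits. Nsg2, which encodes a neuronal endosomal protein, had 9.39, 10.39 and 10.63 in activated Treg, 9.10, 9.42 and 9.26 in resting Treg, and 10.59 and 10.54 in Tconv. Its resting Treg arrays were all lower than Tconv, by 1.31 ± 0.34 on average (adjusted p = 0.0656, and past the threshold in 6 of 17 alternative fits), whereas its activated Treg arrays spanned the Tconv level (-0.43 ± 0.34, adjusted p = 0.563). A second Nsg2 probe set was higher in Treg, by 0.68 in activated and 0.20 in resting Treg.

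Activated Treg and resting Tconv thus differed in 4 of the 9 genes, Igfbp4, Dapl1, Lef1 and Actn1, all lower in activated Treg. Among all genes 9.70% passed in that comparison, and 3.77% were lower. In 6 of the 9 genes the arrays did not overlap, beside 41.1% of all genes. Both Treg groups were set against the same 2 Tconv arrays. Without Tconv replicate 1 or 2, Lef1 kept differences of -1.39 and -1.71 between resting Treg and Tconv but lost the call (adjusted p = 0.162 and 0.0720), and Id3 likewise (2.94 and 2.53, adjusted p = 0.102 and 0.137), as did Actn1 in activated Treg (-1.27 and -1.25, adjusted p = 0.0925 and 0.0843). Igfbp4 and Dapl1 kept their calls in all 8 fits without 1 array.

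Activated and resting Treg were compared to see whether stimulation moved the naive genes within Treg. None of the 9 genes passed (Id3 and Nsg2 had an unadjusted p under 0.05, as did 11.5% of all genes), where 0.742% of all genes did, and in none were the arrays of the groups apart, which held for 13.0% of all genes. Id3 averaged 9.08 ± 0.84 in activated Treg and 10.28 ± 0.52 in resting Treg (SD, n = 3 each), a difference of -1.20 ± 0.42 (SE; adjusted p = 0.301). Nsg2 averaged 10.14 ± 0.66 in activated Treg and 9.26 ± 0.16 in resting Treg (SD, n = 3 each), a difference of 0.88 ± 0.30 (SE; adjusted p = 0.283).

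Lef1, Id3 and Nsg2 lay apart in 1 direction within both classes of the Actb gap, which is 3 of the 9 genes beside 29.7% of all genes, a share near that background. Among the arrays with a gap over 4, Id3 was 8.47 and 8.72 in activated Treg and 9.68 in resting Treg, and among the others it was 10.03 in activated Treg and 10.50 and 10.65 in resting Treg. Nsg2 was 9.39 and 10.39 in activated Treg and 9.10 in resting Treg among the arrays with a gap over 4, and 10.63 in activated Treg and 9.42 and 9.26 in resting Treg among the others. With that class as a block the differences were -0.81 ± 0.19 for Id3 (adjusted p = 0.0987) and 1.04 ± 0.27 for Nsg2 (adjusted p = 0.129). Array weights, which count arrays that vary more for less, gave -1.55 for Id3 (adjusted p = 0.0324) and 0.97 for Nsg2 (adjusted p = 0.0421). With weights 957 of all genes were called, against 135 in the main fit. For each gene this was the only 1 of 17 alternative fits that passed, and 0 of the 8 fits without 1 array did. The other 7 genes differed by between -0.47 (Lef1) and 0.34 (Id2). The intervals still allow sizeable changes, such as -0.997 to 0.053 for Lef1 and -1.12 to 1.09 for Dapl1.

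**Figure D2:**
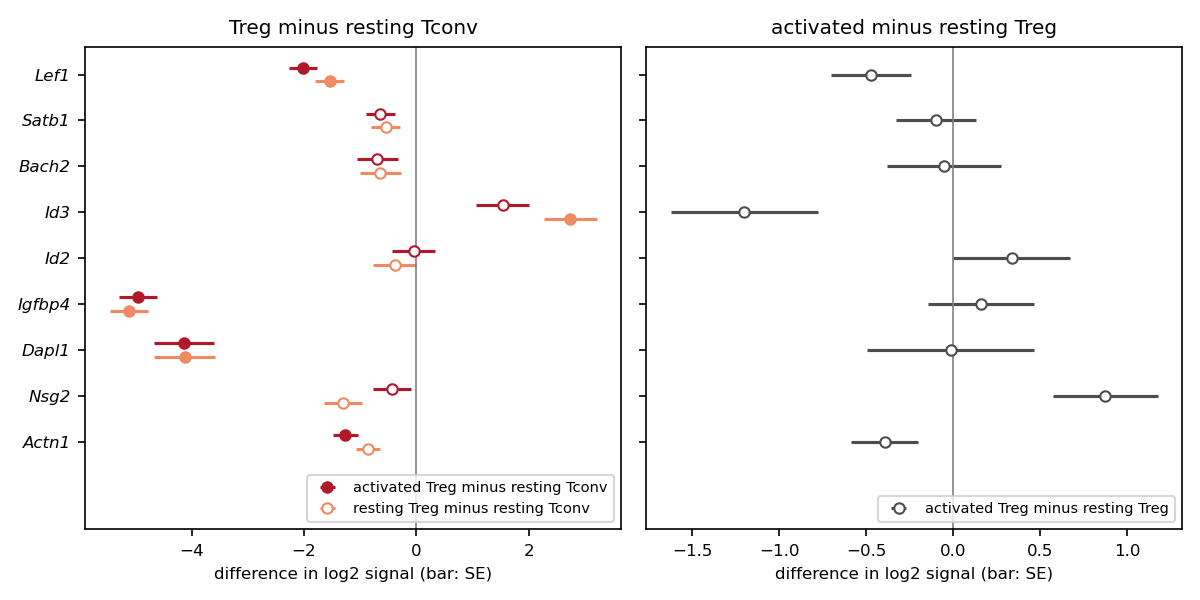
Difference in log2 signal (horizontal axis) of each gene for activated and resting Treg minus resting Tconv (left) and activated minus resting Treg (right), with bars of 1 SE; filled points have a limma adjusted p under 0.05. Igfbp4 and Dapl1 lie between -5.11 and -4.13 in both Treg groups, and every point on the right is open.

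Genes that work with these factors were read from lists of related genes, which were chosen with earlier results of these data known. Of 21 other naive and central T cell markers, 10 fell and none rose in activated Treg relative to Tconv (median difference -1.47), and 5 fell and 1 rose in resting Treg (median -0.77), where 3.77% and 1.65% of all genes fell. Those with the smallest p were Gpr183 (-2.66 in activated and -2.65 in resting Treg), a receptor gene for oxysterols, the phosphodiesterase gene Pde3b (-5.22 and -4.39) and Tmie (-3.72 and -2.41). Between activated and resting Treg 1 of the 21 passed, beside 0.742% of all genes. This was Klf2 (-0.95 ± 0.16, adjusted p = 0.0433), which encodes a factor that keeps the trafficking receptors of naive T cells expressed. Of the 21, 19 had a negative difference and 2 a positive one, with a median of -0.47, against 0.004 over all genes.

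Of 19 effector and memory T cell markers, 16 rose in activated Treg and 14 in resting Treg relative to Tconv, and none fell in either, where 5.93% and 3.86% of all genes rose. The medians were 2.96 and 2.53, and examples are Rora (2.86 in activated and 3.63 in resting Treg), a nuclear receptor gene, and Ahnak (5.75 and 5.86), which encodes a large scaffold protein. Among the genes that passed, those of the effector list were all higher in CD45RBlow Treg than in CD45RBhi Tconv, and those of the naive list were lower with 1 exception.

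Of 15 TCF, LEF and beta-catenin partners, Axin2, a target gene that restrains beta-catenin, was lower in activated Treg than in resting Treg by 1.25 ± 0.21 (adjusted p = 0.0463). Relative to Tconv 4 of the 15 fell in activated Treg, among them Axin2 (-1.59), Bcl9l (-1.45), a beta-catenin coactivator, and Tle4 (-1.09), a Groucho corepressor. In resting Treg Tle4 fell (-0.98) and Tle2 rose (1.20). Over all genes 3.77% fell and 5.93% rose in activated Treg relative to Tconv, and 1.65% fell and 3.86% rose in resting Treg. Of 10 E proteins, Id factors and targets, Tcf4, an E protein gene, rose in activated Treg (1.86) and in resting Treg (2.21) relative to Tconv, as did Cxcr5 (4.87 and 5.18), and Il7r, the IL-7 receptor gene, fell (-1.33 and -0.77). Id1 was lower in activated than in resting Treg by 0.89 ± 0.14 (adjusted p = 0.0351). B cells also express Tcf4 and Cxcr5, and the B cell marker Cd79b rose in activated Treg (2.56) and in resting Treg (2.85) relative to Tconv, as did Cd79a in resting Treg (0.73). Their part in those values was not tested. Of 11 BACH and small MAF factors and BACH targets, Rora and Klrg1 (3.63 and 3.15) rose in activated and resting Treg relative to Tconv. Nfe2l2, a stress response factor, fell (-2.02 and -0.94) and was lower in activated than in resting Treg (-1.08, adjusted p = 0.0234). The lists overlap, as Rora and Klrg1 are also on the effector list and Il7r is also on the naive list.

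**Figure D3:**
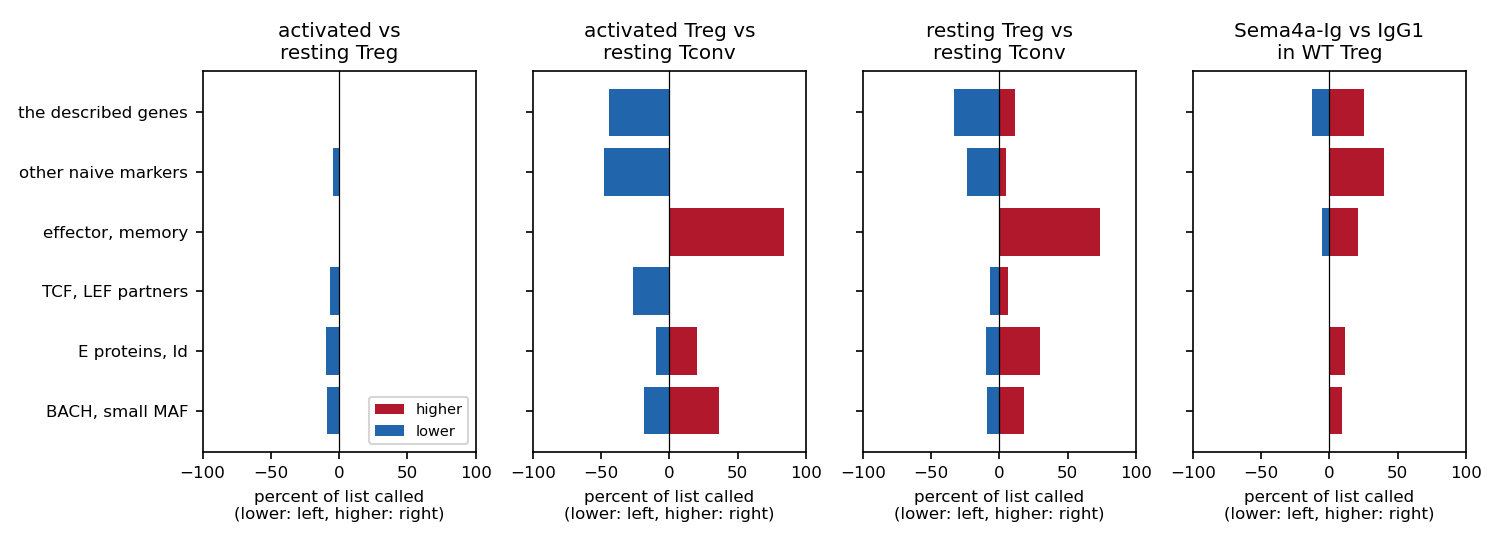
Percent of the measured genes of each list (horizontal axis) that passed limma's test at an adjusted p under 0.05, lower to the left and higher to the right, in 4 comparisons. Effector and memory markers lie to the right and naive markers mostly to the left in Treg relative to Tconv. With Sema4a-Ig in WT Treg 8 of 20 other naive markers were higher, beside 2.91% of all genes.

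In the ligand experiment the question was whether Sema4a-Ig changed the naive genes, and whether this depended on Nrp1. The deposited values limit what can be read. Each IgG1 array has a Sema4a-Ig array of the same genotype beside it, and the mean of every such pair was the same at each probe set within 6e-05, so a level cannot be compared between genotypes and the 16 Sema4a-Ig minus IgG1 differences carry all the information. For the same reason the Sema4a-Ig and IgG1 arrays of a genotype lie apart at a gene exactly when all 8 of its pair differences have 1 sign. Replicate 2 of WT Treg with Sema4a-Ig is WT by its title but carries the floxed allele in its genotype label, and it was kept as WT. Without that pair 1 of the 3 WT calls described next remained, Nsg2 (0.50, adjusted p = 0.0201), while Id3 (0.29, adjusted p = 0.111) and Bach2 (-0.28, adjusted p = 0.056) did not pass. In KO Treg limma called no gene, of the 8 or of all 17097 (0%), and 1 of the 8 (Nsg2) and 1787 of all genes (10.5%) had an unadjusted p under 0.05. In WT Treg Nsg2 and Id3 rose with Sema4a-Ig and Bach2 fell, which is 3 of 8 genes, where 5.79% of all genes passed (2.91% higher and 2.88% lower). These 3 genes moved in 1 direction in 8 of 8 WT pairs, as did 7.39% of all genes. The median difference of the 8 genes was 0.07 in KO and 0.08 in WT, against -0.02 and -0.01 over all genes.

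Nsg2 log2 signals in KO ran from 7.35 to 7.78 (median 7.57) with Sema4a-Ig, against 7.07 to 7.5 (median 7.28) with IgG1. The KO pair differences were 0.53, 0.42, 0.71, 0.13, 0.43, -0.14, -0.03 and 0.15. Of these 6 of 8 were above 0, with a mean of 0.27 ± 0.11 (SE; adjusted p = 0.424). In WT Nsg2 ran from 7.48 to 7.98 (median 7.62) with Sema4a-Ig, against 6.87 to 7.37 (median 7.23) with IgG1. The WT pair differences were 0.42, 0.82, 1.11, 0.38, 0.11, 0.82, 0.35 and 0.30. All 8 were above 0, and the mean was 0.54 ± 0.11 (adjusted p = 0.00555), a 1.45-fold rise that passed in 24 of 26 alternative fits. Among these 26, the fits without a KO pair kept the WT mean and changed only the spread shared by the genotypes. KO minus WT was -0.26 with a 95% interval of -0.58 to 0.05 (adjusted p = 0.854), so the genotypes were not shown to differ.

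Id3 in KO had pair differences of 0.68, -0.28, 0.49, 0.38, 0.15, 0.06, 0.06 and -0.19, with a mean of 0.17 ± 0.10 (adjusted p = 0.555). KO pairs thus lay on both sides of 0, and signals ran from 6.64 to 7.12 (median 6.83) with Sema4a-Ig, against 6.44 to 6.92 (median 6.73) with IgG1. In WT the signals ran from 6.81 to 7.14 (median 6.92) with Sema4a-Ig, against 6.42 to 6.74 (median 6.63) with IgG1. The WT pair differences were 0.29, 0.72, 0.71, 0.36, 0.24, 0.07, 0.09 and 0.29, with a mean of 0.35 ± 0.10 (adjusted p = 0.0456). That adjusted p lay close to the threshold and passed it in 11 of 26 alternative fits. With a WT pair left out, Id3 passed only without WT replicate 6. KO minus WT was -0.18 (95% interval -0.47 to 0.12).

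Bach2 in KO had pair differences from -0.61 to 0.01, 7 of 8 below 0, with a mean of -0.14 ± 0.08 (adjusted p = 0.516). In WT the signals ran from 8.62 to 8.84 (median 8.78) with Sema4a-Ig, against 8.97 to 9.20 (median 9.03) with IgG1. The WT pair differences were -0.58, -0.31, -0.13, -0.28, -0.14, -0.42, -0.22 and -0.22, with a mean of -0.29 ± 0.08 (adjusted p = 0.0314). This passed in 16 of 26 alternative fits. With a WT pair left out, Bach2 passed only without WT replicate 5 or 8. KO minus WT was 0.15 (95% interval -0.08 to 0.37). All 3 Bach2 probe sets had negative mean differences in KO and in WT.

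**Figure D4:**
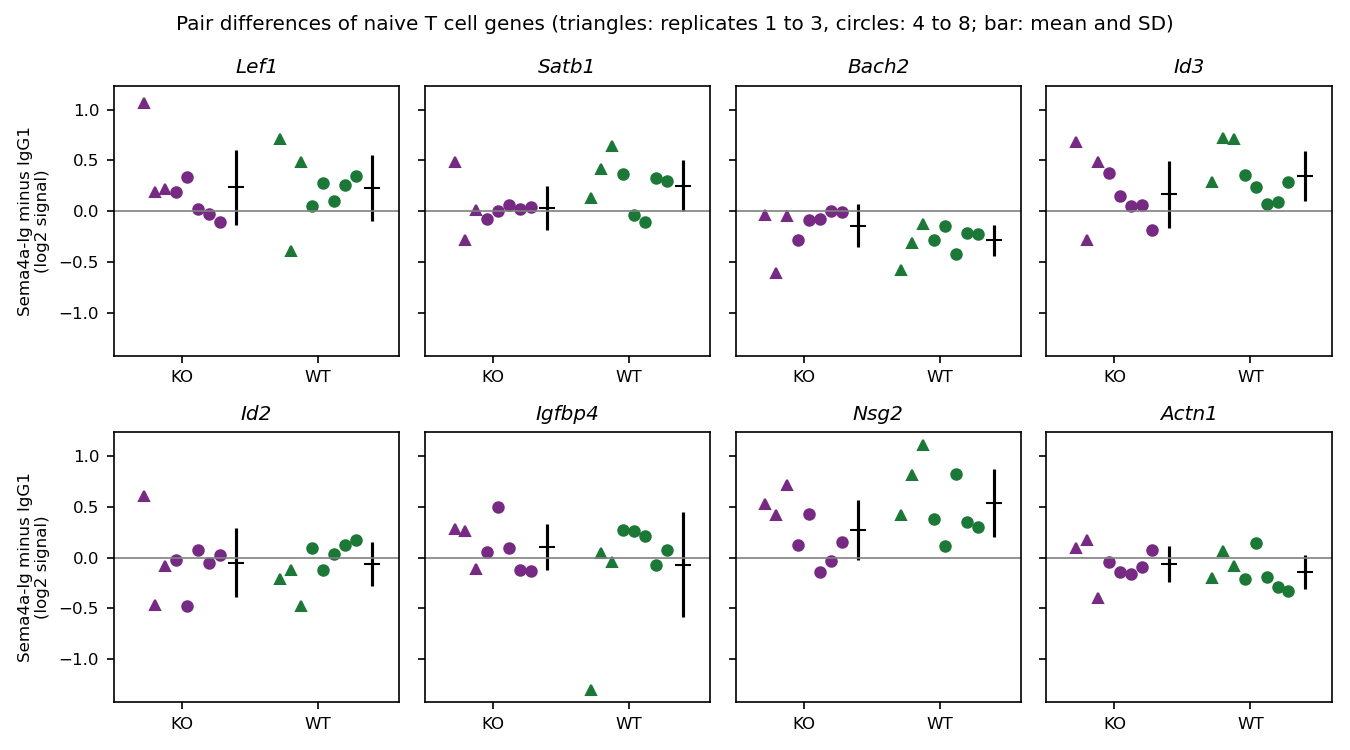
Sema4a-Ig minus IgG1 difference in log2 signal (vertical axis) for 8 genes in 8 KO and 8 WT pairs; each point is a pair, triangles are replicates 1 to 3 and circles 4 to 8, and the bar gives mean and SD. All 8 WT points lie above 0 for Nsg2 and Id3 and below 0 for Bach2, and KO points of these genes lie on both sides.

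The other 5 genes did not pass in either genotype. Lef1 had mean differences of 0.24 ± 0.11 in KO (6 of 8 pairs above 0) and 0.23 ± 0.11 in WT (7 of 8 pairs above 0), with adjusted p of 0.478 and 0.253, and KO minus WT was 0.01 (95% interval -0.33 to 0.34). KO pair 1 stood at 1.07, and without it the KO mean was 0.12. Satb1 averaged 0.03 ± 0.09 in KO (adjusted p = 0.919) and 0.25 ± 0.09 in WT (6 of 8 pairs above 0, adjusted p = 0.0873). KO minus WT for Satb1 was -0.22 (95% interval -0.48 to 0.04). The other Satb1 probe sets had mean differences of -0.16 and 0.22 in KO, and of 0.17 and 0.24 in WT. Id2 averaged -0.05 in KO and -0.06 in WT, each ± 0.10, with pairs on both sides of 0. Igfbp4 averaged 0.10 ± 0.13 in KO and -0.07 ± 0.13 in WT, where pair 1 stood at -1.30 and the mean without it was 0.11. Actn1 averaged -0.06 ± 0.08 in KO and -0.14 ± 0.08 in WT. Igfbp4, which of the 9 genes had the largest gap between Treg and Tconv, thus had no difference with the ligand that passed the test. Over the ligand arrays Igfbp4 averaged 7.70, above the highest nonspecific control probe set there (3.95). Its level was not compared between the array types.

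The WT calls moved with other measures and with the set of pairs. Pair replicates 1 to 3 of each genotype had wider spreads over all genes (SD 0.337 to 0.498) than replicates 4 to 8 (0.209 to 0.321). With replicates 4 to 8 alone, the WT means were 0.39 for Nsg2, 0.21 for Id3 and -0.26 for Bach2, at adjusted p of 0.0823, 0.207 and 0.0751. Myeloid markers (12 of 12 measured) had mean pair differences of -0.26 to 0.49 in KO, with 4 of 8 above 0, and -0.19 to 0.66 in WT, with 6 of 8 above 0. Lyz2 (0.81), Tyrobp (0.39) and Ctss (0.37) rose in WT. With the myeloid difference as a covariate the WT values were 0.47 for Nsg2, 0.30 for Id3 and -0.26 for Bach2, and no gene of all 17097 passed (3 of the 8 genes had been called without it).

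Among companion genes in WT, 8 of 20 other naive and central T cell markers rose with Sema4a-Ig and none fell (median 0.25). Over all genes 2.91% rose and 2.88% fell. Those with the smallest p were Klf2 (1.05 ± 0.13), Trib2 (0.70 ± 0.10), a pseudokinase gene, and S1pr1 (0.71 ± 0.10), the receptor for exit from lymph nodes and a target of Klf2. Of 19 effector and memory markers 4 rose, among them S100a6 (0.81) and Ahnak (0.56), and 1, Cd44 (-0.35), fell. Of 15 TCF, LEF and beta-catenin partners Tle5 had the smallest p, at 0.23 ± 0.08 (adjusted p = 0.113). Bach1, the relative of Bach2, rose by 0.30 ± 0.09 (adjusted p = 0.0428) and Id4 by 0.46 ± 0.13 (adjusted p = 0.0345). In KO these genes did not pass, with Klf2 at 0.42 ± 0.13 (adjusted p = 0.378) and Trib2 at 0.46 ± 0.10 (adjusted p = 0.376). The 20 other naive markers had a median of 0.16 in KO, against -0.02 over all genes. In KO 15 of them lay above 0 and 5 below, and in WT 17 and 3. KO minus WT did not pass for any gene, with Klf2 at -0.63 ± 0.19 (adjusted p = 0.675) and 1015 of 17097 genes (5.94%) at an unadjusted p under 0.05.

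The 8 genes were also compared with each other over the pairs. Of 28 correlations over the 16 pair differences, 1 passed after Benjamini-Hochberg adjustment, between Satb1 and Id3 (Pearson r = 0.74, permutation p = 0.00121 with 100000 resamples, two-sided, adjusted p = 0.0339). Its Spearman rho was 0.58 (permutation p = 0.0218, adjusted p = 0.535). Satb1 was read here from its brightest probe set. The correlation was not computed with its other probe sets, which moved in opposite directions in KO pair 1. Without KO pair 1 and WT pair 3, the pairs farthest from the median of Satb1, r was 0.58, and it was 0.70 within KO and 0.74 within WT. Id3 and Nsg2 had r = 0.56 (permutation p = 0.0237, adjusted p = 0.332), and Lef1 and Bach2 had r = -0.04. The pairs share 1 normalization and a common spread over genes, which these values do not separate.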

How the data were processed

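Per the labels' protocols, sorted T cell RNA (1 µg) was labelled by the Affymetrix 2-cycle method, and RNA of the ligand experiment, a TRIzol extract, by the 3′ IVT Express method. The authors deposited log2 signals per probe set, made with RMA and Partek 6.6 per the submitters' processing notes. No further step is named in the sources read here. Before deposit the 16 pairs of ligand arrays had been given equal means at each probe set, so pair differences were tested, with the pair taken from neighbouring title codes. Of 45101 and 45141 probe sets, 35890 and 29449 were listed with a gene; those listed with several (932 and 551) were left out, and the brightest probe set stood for a gene.

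Genes were tested with limma 3.58.1 (lmFit, eBayes; R 4.3.3), two-sided, with Benjamini-Hochberg adjustment over all genes and a threshold of 0.05. The 8 sorted arrays entered 1 fit with 3 group means, and another fit held the 16 pair differences with 1 mean for each genotype. The code was tested on simulated data. Arrays give no counts, and the number of arrays limits the precision. Alternatives changed the arrays, weights, scaling, probe sets, filter, block and covariates. The members and gene lists were chosen with earlier results of these data known. Every member was named, along with up to 3 genes of a companion list with the smallest p in a comparison and the 3 genes most like Lef1 and Id3.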

Additional observations from a re-analysis of the deposited data

Results flagged for a closer look

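In 4 of the 16 groups of 8 pair differences (8 genes, 2 genotypes), 1 pair stood far from the others by Dixon's criterion, which chance meets in about 1 of 20 groups. Lef1 was 1.07 in KO pair 1, against -0.11 to 0.34 in the other 7 KO pairs. Satb1 was 0.49 in the same KO pair, against -0.28 to 0.06. Bach2 was -0.61 in KO pair 2, against -0.28 to 0.01. Igfbp4 was -1.30 in WT pair 1, against -0.08 to 0.27. All 4 lie in pair replicates 1 to 3, which had the wider spreads over all genes.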

How the results depend on the processing

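Calls of the 9 sorted genes kept their direction in every alternative for Igfbp4, Dapl1, Lef1, Actn1 and Id3 against Tconv. The 2 Tconv arrays carry those comparisons: leaving out 1 array in turn gave 242 to 1208 called genes for resting Treg against Tconv (1003 with all) and 433 to 2262 for activated Treg against Tconv (1765), the low ends without Tconv replicate 1 (288 and 565 without replicate 2, and 1127 for activated Treg against Tconv without activated Treg replicate 2), with 2 to 6 and 3 to 5 of the described genes called. For activated against resting Treg it gave 12 to 168 genes (135), the low end without activated Treg replicate 1, with 34 to 67 without resting Treg replicate 2, either Tconv array or activated Treg replicate 3, and 0 described genes. Array weights gave 957, 3005 and 5894 genes for activated against resting Treg, resting Treg against Tconv and activated Treg against Tconv, with 2, 6 and 7 described genes. With the Actb class as a block there were 318 genes for activated against resting Treg and 1633 for resting Treg against Tconv. With only the arrays of low gap, where activated Treg is 1 array assumed to vary like the others, there were 24 for activated against resting Treg and 873 for activated Treg against Tconv, with 2 described genes. Renewed quantile normalization gave 216 and the 2 groups alone 36 for activated against resting Treg. The cause of these moves was not tested, apart from fewer arrays.

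For Sema4a-Ig in WT, leaving out 1 pair gave 258 to 1328 genes (990) and 1 to 3 described genes, the low end without WT replicate 3, with 538 and 413 without WT replicates 1 and 7. Nsg2 was called in all 16 of these fits, Bach2 in 10 and Id3 in 5. Those without a KO pair kept the WT mean and changed only the spread shared by the genotypes. With a WT pair left out, Bach2 was called only without WT replicate 5 or 8, and Id3 only without WT replicate 6. A filter on a mean of 5 or more gave 1688 genes, the WT pairs alone 484 (1 described gene, Nsg2), replicates 4 to 8 alone, chosen after seeing the data, 150 (0 described genes), and the myeloid covariate 0 genes (0 described). With no replicate block, a fit that takes paired arrays as independent, there were 4417 genes in WT, 1734 in KO and 530 for KO minus WT, with 6, 1 and 0 described genes. Leaving out 1 pair gave 0 genes in KO and for KO minus WT.

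Directions turned only where the difference had not passed. Between activated and resting Treg, Bach2 (-0.05) was 0.19 with the Actb class as a block, 0.12 as the mean of its probe sets, 0.47 over the arrays of low gap, 0.052 after renewed quantile normalization and -0.39 to 0.21 without 1 array. Dapl1 (-0.01) was 0.032 with weights, 0.63 over the arrays of low gap and -0.56 to 0.37 without 1 array. Id2 (0.34) was -0.12 and Satb1 (-0.10) 0.017 over the arrays of low gap, with Satb1 at -0.36 to 0.046 without 1 array. Igfbp4 (0.16) was -0.27 with weights and -0.12 to 0.5 without 1 array. Between activated Treg and Tconv, Nsg2 (-0.43) was 0.13 as the mean of its probe sets and 0.068 over the arrays of low gap, and Id2 (-0.05) was -0.38 to 0.13 without 1 array. In WT, Id2 (-0.06) was 0.015 with weights and 0.062 with replicates 4 to 8, and Igfbp4 (-0.07) was 0.058 and 0.15, and -0.12 to 0.11 without 1 pair. In KO, Actn1 (-0.06) was 0.031 as the mean of its probe sets, Id2 (-0.05) -0.14 to 0.013 and Satb1 (0.03) -0.032 to 0.078 without 1 pair. For KO minus WT, Id2 (0.01) was -0.0082 with the 3′ to 5′ covariate, -0.082 with weights, -0.026 with the myeloid covariate, -0.15 with replicates 4 to 8 and -0.082 to 0.074 without 1 pair. Lef1 (0.01) was -0.017 with the 3′ to 5′ covariate, -0.068 with weights, -0.12 with replicates 4 to 8 and -0.11 to 0.076 without 1 pair. Igfbp4 (0.17) was -0.069 with replicates 4 to 8 and -0.0018 to 0.22 without 1 pair.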

Other observations

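The genes whose pattern was most like that of Lef1 over the 8 sorted arrays, among 8676 genes with a mean log2 signal of 6 or more, were Sgk1 (Pearson r = 0.99), which encodes a serum-induced kinase, Sntb1 (0.99) and Mrgbp (0.98). Actn1 ranked 16 (r = 0.97), Dapl1 30 (r = 0.96), Igfbp4 259 (r = 0.88) and Satb1 276 (r = 0.87), whereas Id2 had r = -0.10. For Id3 they were Pstpip2 (0.98), the inhibitor of apoptosis gene Birc3 (0.97) and Dgat1 (0.97). These 8 arrays share the 3 group means and differ in RNA integrity, so the values describe the arrays and carry no test.

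Over the 16 pair differences, among 6106 genes, those most like Lef1 were Cers4 (0.90), Cbl (0.88), a ubiquitin ligase gene, and Ankrd16 (0.87), and those most like Id3 were Tia1 (0.81), Ttc5 (0.79) and Rcan3 (0.78). Satb1 ranked 13 for Id3. Dapl1, Actn1 and Igfbp4, close to Lef1 in the sorted cells, had no such closeness over the pairs where measured (r = -0.03 for Actn1 and -0.20 for Igfbp4). Lef1 was read from a different probe set on the ligand arrays. The r values of sorted signals and of pair differences thus differ in probe set as well as in measure.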
